A study of Mus musculus with 8 samples.

Results

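The mammalian circadian clock is a loop of transcription that runs in most cells, heart muscle cells included. CLOCK and its partner BMAL1 switch on genes that carry E-box motifs, among them the Per and Cry genes, whose protein products return to the nucleus and repress CLOCK and BMAL1. A further loop runs through the nuclear receptors REV-ERBα and REV-ERBβ, made from Nr1d1 and Nr1d2, which repress Bmal1, and through the ROR receptors, which activate it. Dbp and Tef encode transcription factors that pass the rhythm on to output genes through D-box motifs. Transcripts of many of these genes rise and fall over the day, so a value from a heart taken at a single time depends on when it was taken.

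The members are 10 clock genes, matched by gene symbol: Clock, Per1, Per2, Per3, Cry1, Cry2, Nr1d1, Nr1d2, Dbp and Tef. All 10 were listed among the 23045 genes of the table, and all 10 were among the 20313 genes tested. They were read in RNA-seq libraries of hearts from 4 WT mice (Mettl3lox/lox) and 4 Mettl3 KO mice (Mettl3lox/lox:alphaMHC-MerCreMerpos). METTL3 is the enzyme that places N6-methyladenosine on RNA. Both groups carried the loxP-flanked Mettl3 gene, and per the study's methods both received tamoxifen, 100 µg per g of body weight on 7 days in a row, starting between 10 and 16 weeks of age. Only the Mettl3 KO mice carried MerCreMer, a tamoxifen-activated Cre recombinase whose αMHC promoter is active in heart muscle cells and which is not meant to act in the other cells of the heart. Recombination by cell type was not measured here. The design has no library with the Cre transgene and intact Mettl3, so an effect of the Cre protein and an effect of Mettl3 loss cannot be told apart. Lights in the animal rooms were on between 7 in the morning and 6 in the evening. The time of day at which each heart was collected is not given in the sources used here. The labels name separate libraries of each genotype, and nothing in them says how the animals were related.

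Values are normalized read counts, scaled by the authors so that libraries can be compared. They summed to 2839589 to 2916986 per library, and the reads behind them, as estimated from gaps among the low values, numbered 2631234 to 3062542. The clock genes ranged from 31 to 952 normalized read counts in a library, which sets the precision of each value. Mettl3 itself had 105, 133, 118 and 107 normalized read counts in the WT libraries and 74, 68, 69 and 78 in the Mettl3 KO libraries (log2 fold change -0.67 with an SE of 0.10, limma adjusted p = 0.000184). Of 7 ventricular myocyte markers none passed the test (limma, 1 at an unadjusted p under 0.05, 0 by limma voom), and their summed level was 79817 to 86242 in WT and 78805 to 88345 in Mettl3 KO libraries. The atrial markers Myl7, Sln and Bmp10 were higher in 3 of 3 cases (limma, 2 called by limma voom). Their sums were 0 to 38 in WT libraries, 33 in Mettl3 KO library 1 and 277 to 541 in Mettl3 KO libraries 2 to 4. Bmp10 was listed at 0 in every WT library and in Mettl3 KO library 1. Fibroblast markers were higher in 7 of 8 cases (sums of 3493 to 3883 in WT and 4398 to 5060 in Mettl3 KO libraries). Of 8 endothelial markers, 3 were lower and 1 was higher (4825 to 4975 and 4407 to 4786). Of 7 macrophage markers 1 was lower (1020 to 1292 and 963 to 1158), as was 1 of 5 tested adipocyte markers, Fabp4, which endothelial cells also express. The other 4, Adipoq, Plin1, Cfd and Retn, had 0 to 4 normalized read counts in every library and fitted log2 fold changes of 0.44 to 1.16, none of which passed. None of 7 smooth muscle and pericyte or 6 blood cell markers passed (limma, 3 and 2 at an unadjusted p under 0.05, 0 in each list by limma voom). In heart tissue of mixed cell types, fewer cells of a type and less RNA per cell cannot be told apart. The part of these markers in the results on clock genes was not tested beyond the values given here.

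Of the 10 clock genes, 3 passed the test between genotypes. Per2 and Per3 were higher and Clock was lower in Mettl3 KO hearts, whereas Per1, Cry1, Cry2, Nr1d1, Nr1d2, Dbp and Tef did not pass. The test was limma on log2(value + 1), with p adjusted by Benjamini-Hochberg over all 20313 genes and a threshold of 0.05. By the same rule 7.91% of all genes tested were called, 4.72% as higher and 3.19% as lower in Mettl3 KO hearts. The members' median log2 fold change was 0.08, and that of all genes tested was -0.01. The genotypes did not overlap for 1 of the 10, Clock, compared with 11.5% of all genes tested. These counts rest on few libraries. With each library left out in turn, between 0 and 4 members passed, and none passed without WT replicate 2 or without Mettl3 KO replicate 4 (4 at an unadjusted p under 0.05 in both cases). All 3 calls were also lost in limma without a mean-variance trend, where no member passed. They were lost too with an index of the atrial markers as covariate, where only Per1 passed. That index nearly followed genotype, at 6.24 to 7.14 for Mettl3 KO libraries 2 to 4 and no more than 2.82 for every other library. With this covariate the SE rose (Clock 0.05 to 0.07, Per2 0.14 to 0.21, Per3 0.10 to 0.15). The fit therefore cannot separate genotype from the level of the atrial markers.

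**Figure D1:**
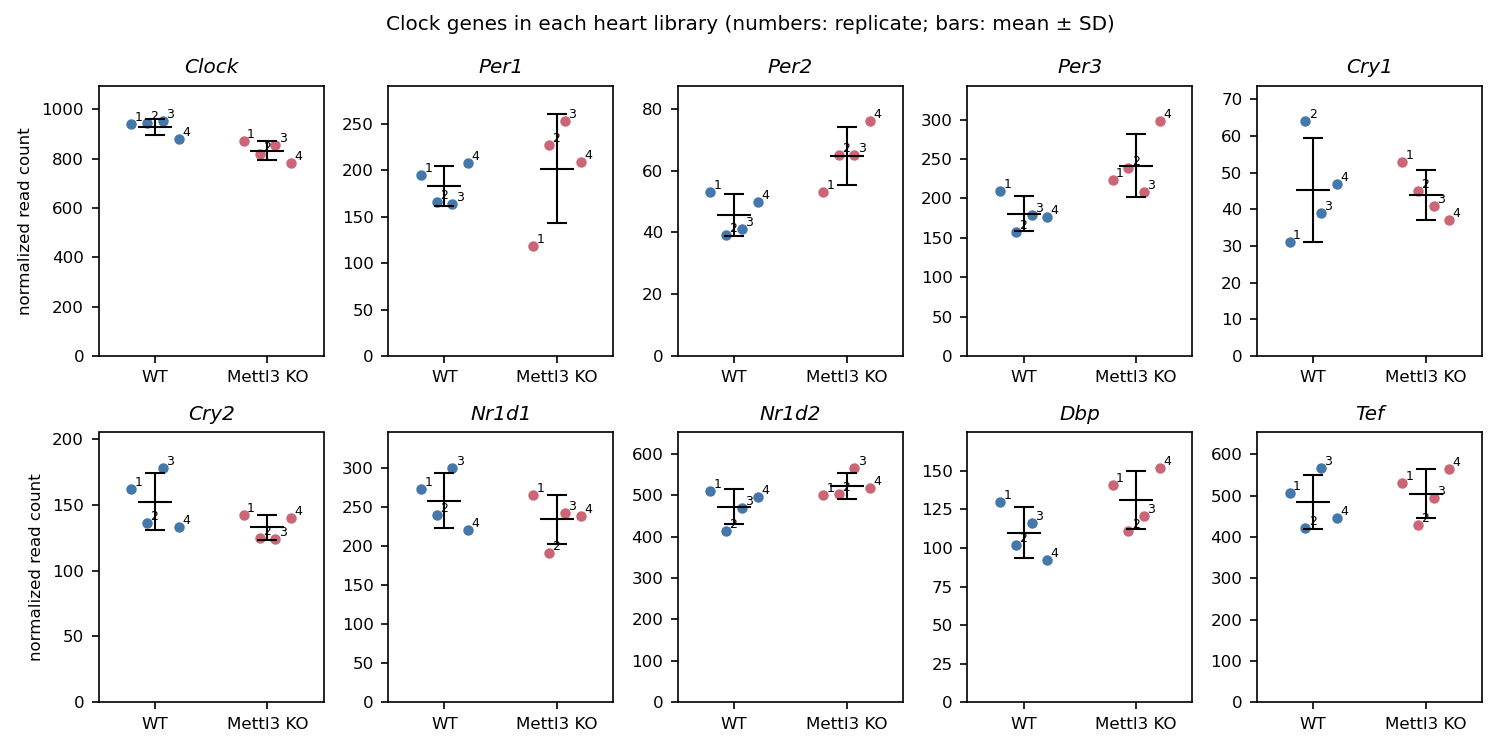
Normalized read counts of the 10 clock genes (vertical axes, each starting at 0) in WT (blue) and Mettl3 KO (red) libraries, with the replicate number beside each point and bars for the mean ± SD of 4 libraries. Only for Clock do all Mettl3 KO libraries (783 to 872) lie outside the WT range (878 to 952), and Per1 in Mettl3 KO library 1 lies at 118 against 209 to 253 in the other 3.

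Clock (ENSMUSG00000029238, mm39 chromosome 5, 76357715 to 76452639, minus strand) encodes the activator that pairs with BMAL1. It had 940, 943, 952 and 878 normalized read counts in the WT libraries and 872, 821, 856 and 783 in the Mettl3 KO libraries. The highest Mettl3 KO library lay just under the lowest WT library. The means were 928 ± 33.9 and 833 ± 39.6 (SD, n = 4 each), 89.7% of the WT level. The log2 fold change was -0.16 with an SE of 0.05 (limma adjusted p = 0.0363), and the exact two-sided permutation test over the libraries gave p = 0.0286, the smallest that 4 against 4 allows. The fall was small and the call was not stable. It passed in 12 of 20 alternatives and in 2 of the 8 that left out a library, over which the fold change ran from -0.18 to -0.13. With the index of atrial markers as covariate it was -0.07 (limma adjusted p = 0.655). On its strand Clock overlaps Gm43658 (20 to 31 normalized read counts per library) and Ube2n-ps1 (0 to 2), and reads shared between genes had been left out.

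The Period genes encode the repressors of the loop. Per1 is also known as a gene that stress hormones and light can induce directly. Per2 (ENSMUSG00000055866, chromosome 1, 91343704 to 91387046, minus strand) had 53, 39, 41 and 50 in the WT libraries and 53, 65, 65 and 76 in the Mettl3 KO libraries. The genotypes met at a single value, 53, which was the highest in WT and the lowest in Mettl3 KO. The means were 45.8 ± 6.80 and 64.8 ± 9.39 (SD, n = 4 each), and the log2 fold change was 0.49 with an SE of 0.14 (limma adjusted p = 0.0348, exact permutation p = 0.0571). At these levels counting alone gives a coefficient of variation of 13.4%, close to the 14.9% seen in WT and 14.5% in Mettl3 KO libraries. The call passed in 11 of 20 alternatives and in 3 of the 8 that left out a library, over which the fold change ran from 0.41 to 0.58. It was lost without a trend (0.49, limma adjusted p = 0.142), in the fit blocked by replicate number (0.49, limma adjusted p = 0.0586) and with limma voom (0.48, limma adjusted p = 0.0513), and with the atrial index the fold change was 0.14 (limma adjusted p = 0.810).

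Per3 (ENSMUSG00000028957, chromosome 4, 151088109 to 151129122, minus strand) had 210, 157, 179 and 177 in the WT libraries and 223, 238, 208 and 298 in the Mettl3 KO libraries. Only Mettl3 KO library 3, at 208, fell below a WT value, and library 4 stood highest. The means were 181 ± 21.9 and 242 ± 39.4 (SD, n = 4 each), and the log2 fold change of 0.41 with an SE of 0.10 (limma adjusted p = 0.00988, exact permutation p = 0.0571) had the lowest p among the 10 genes. It passed in 16 of 20 alternatives. The call was lost when WT replicate 2 was left out (0.35, limma adjusted p = 0.0559), when Mettl3 KO replicate 4 was left out (0.31, limma adjusted p = 0.0595), without a mean-variance trend (0.41, limma adjusted p = 0.182) and with the atrial index (0.24, limma adjusted p = 0.419). Per3 overlaps Camta1 on the same strand, and as for Clock shared reads had not been counted. From which of the overlapping genes the reads over Per3 exons alone came was not tested. Camta1, a calmodulin-binding transcription activator, had 792 to 813 in WT and 866 to 939 in Mettl3 KO libraries (log2 fold change 0.18 with an SE of 0.04, limma adjusted p = 0.00983).

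Per1 (ENSMUSG00000020893, chromosome 11, 68986043 to 69000786, plus strand) had 195, 166, 164 and 208 in the WT libraries and 118, 227, 253 and 209 in the Mettl3 KO libraries. Libraries 2 to 4 of the Mettl3 KO group lay above every WT library, and library 1 lay below every one. The means were 183 ± 21.7 and 202 ± 58.7 (SD, n = 4 each), and the log2 fold change of 0.09 with an SE of 0.15 (limma adjusted p = 0.816) had a 95% confidence interval from -0.22 to 0.40. This value turned on a single library. Without Mettl3 KO replicate 1 it was 0.33 and passed (limma adjusted p = 0.0258), and with the atrial index, which is also low in that library, it was -0.58 (limma adjusted p = 0.0333).

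The Cryptochrome genes encode the partners of the Period proteins in repression. Cry1 (ENSMUSG00000020038, chromosome 10, 84967564 to 85020928, minus strand) had 31, 64, 39 and 47 in the WT libraries and 53, 45, 41 and 37 in the Mettl3 KO libraries. All Mettl3 KO values lay within the WT range, and the WT libraries differed 2.06-fold among themselves. The log2 fold change was -0.00 with an SE of 0.18 (limma adjusted p = 1), with a 95% confidence interval from -0.38 to 0.38. At this depth a change of such a size in either direction could not be told from none. Cry2 (ENSMUSG00000068742, chromosome 2, 92233991 to 92264388, minus strand) had 162, 136, 178 and 133 in the WT libraries and 142, 125, 124 and 140 in the Mettl3 KO libraries. Its Mettl3 KO values overlapped the lower WT values, and its log2 fold change of -0.19 with an SE of 0.10 (limma adjusted p = 0.271) did not pass in any of the 20 alternatives.

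Among the nuclear receptors, Nr1d1 (ENSMUSG00000020889, chromosome 11, 98658758 to 98666159, minus strand) had 273, 239, 300 and 220 in the WT libraries and 265, 191, 242 and 238 in the Mettl3 KO libraries. The values overlapped, and the log2 fold change was -0.14 with an SE of 0.10 (limma adjusted p = 0.457). Nr1d1 overlaps Thra on the opposite strand, and counting had been by strand. Nr1d2 (ENSMUSG00000021775, chromosome 14, 4230569 to 4265642, plus strand) had 510, 413, 470 and 496 in the WT libraries and 501, 502, 566 and 518 in the Mettl3 KO libraries. WT library 1 reached into the Mettl3 KO range, and the log2 fold change was 0.15 with an SE of 0.06 (limma adjusted p = 0.175). Neither receptor gene passed in any of the 20 alternatives.

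The output factors overlapped between the genotypes as well. Dbp (ENSMUSG00000059824, chromosome 7, 45354512 to 45359627, plus strand) had 130, 102, 116 and 92 in the WT libraries and 141, 111, 121 and 152 in the Mettl3 KO libraries. Its log2 fold change of 0.25 with an SE of 0.11 (limma adjusted p = 0.193) had a 95% confidence interval from 0.02 to 0.49 before adjustment and did not pass in any of the 20 alternatives. Tef (ENSMUSG00000022389, chromosome 15, 81686622 to 81711064, plus strand) had 506, 421, 568 and 446 in the WT libraries and 532, 430, 494 and 566 in the Mettl3 KO libraries. The ranges nearly coincided, and the log2 fold change was 0.06 with an SE of 0.08 (limma adjusted p = 0.759), with a 95% confidence interval from -0.11 to 0.23.

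**Figure D2:**
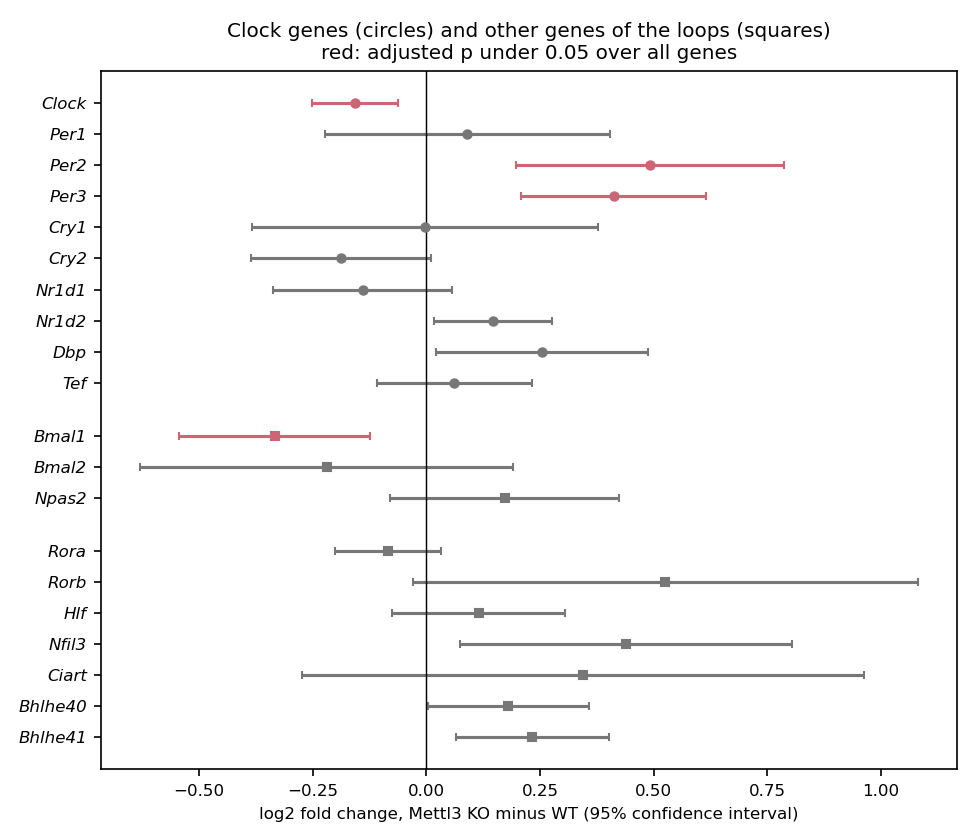
Log2 fold changes (horizontal axis, Mettl3 KO minus WT, with 95% confidence intervals before adjustment) of the 10 clock genes (circles) and of 10 other genes of the clock loops (squares), with red for a limma adjusted p under 0.05. In red, Per2 (0.49) and Per3 (0.41) lie to the right and Clock (-0.16) and Bmal1 (-0.33) to the left, whereas Rorb (0.53) and Nfil3 (0.44) have wide intervals and did not pass.

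Levels were compared between genes per 1 kb of exon sequence, with exon lengths taken from annotation of GRCm38, the preceding build of the mouse genome, matched by gene identifier. Lengths are of all annotated exons together, so the levels are approximate. In WT hearts the order ran from Nr1d2 (87.3 ± 7.92 normalized read counts per kb, SD, n = 4) over Nr1d1 (83.8 ± 11.6), Clock (67.6 ± 2.47), Tef (61.7 ± 8.35), Dbp (36.8 ± 5.54), Per1 (32.5 ± 3.86), Cry2 (24.1 ± 3.41), Per3 (18.8 ± 2.28) and Cry1 (13.5 ± 4.22) to Per2 (7.81 ± 1.16). Neighbours whose WT values overlapped were Nr1d2 and Nr1d1, Clock and Tef, Dbp and Per1, Cry2 and Per3, and Per3 and Cry1. In Mettl3 KO hearts Nr1d2 (96.5 ± 5.64) no longer overlapped Nr1d1 (76.0 ± 10.1), and neither did Per3 (25.2 ± 4.11) and Cry1 (13.2 ± 2.05). Nr1d1 and Clock, Per1 and Cry2, and Cry1 and Per2 overlapped there, unlike in WT hearts. The order turned for Tef (64.3 ± 7.41), above Clock (60.7 ± 2.88), and for Per3, above Cry2 (21.0 ± 1.51), in both cases with overlapping values.

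The other genes of the loops were then read from the same fit. Of 3 further activator genes 1 fell. Bmal1 (listed as Arntl, ENSMUSG00000055116, chromosome 7, 112806672 to 112913333, plus strand), which encodes the partner of CLOCK, had 181, 206, 212 and 146 in the WT libraries and 164, 138, 151 and 133 in the Mettl3 KO libraries. WT library 4 lay within the Mettl3 KO range. The log2 fold change was -0.33 with an SE of 0.10 (limma adjusted p = 0.0447). It passed in 12 of 20 alternatives and in 2 of the 8 that left out a library, and with the atrial index it was -0.07 (limma adjusted p = 0.860). Npas2, which can stand in for Clock, differed by 0.17 (limma adjusted p = 0.476) and Bmal2 by -0.22 (limma adjusted p = 0.605).

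Of 7 other loop genes analysed here none passed (limma, 3 at an unadjusted p under 0.05, 0 by limma voom). Rora, which encodes a ROR receptor, had 529, 500, 607 and 536 in the WT libraries and 504, 493, 526 and 520 in the Mettl3 KO libraries. The Mettl3 KO values overlapped the lower WT values, and the difference on the log2 scale was -0.08 (limma adjusted p = 0.442). Among the repressors of the loops, Bhlhe41 differed by 0.23 (limma adjusted p = 0.0838), Bhlhe40 by 0.18 (limma adjusted p = 0.231) and Nfil3, which binds D-boxes against Dbp and Tef, by 0.44 (limma adjusted p = 0.143). Hlf, the third factor of the Dbp and Tef family, differed by 0.11 (limma adjusted p = 0.547). The largest difference of the 7 was that of Rorb, a further ROR receptor gene, at 0.53 (limma adjusted p = 0.276), with 14 to 22 in WT and 13 to 38 in Mettl3 KO libraries. Ciart, which encodes a repressor of CLOCK and BMAL1, had 6 to 9 and 8 to 13 (0.34, limma adjusted p = 0.586).

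None of 6 genes analysed here for kinases and ubiquitin ligases that act on clock proteins passed (limma, 1 at an unadjusted p under 0.05, 0 by limma voom). Csnk1d, the casein kinase gene whose product phosphorylates Period proteins, differed by -0.02 (95% confidence interval with limma, -0.15 to 0.11) and Btrc, whose product marks Period proteins for breakdown, by -0.16 (limma adjusted p = 0.228). Of 10 genes known to follow the clock in heart or other tissues 1 passed. Nampt (ENSMUSG00000020572, chromosome 12, 32869544 to 32903348, plus strand), which encodes the rate-limiting enzyme of NAD salvage, had 776, 709, 882 and 747 in the WT libraries and 586, 554, 568 and 573 in the Mettl3 KO libraries. The ranges were far apart, and the log2 fold change was -0.44 with an SE of 0.06 (limma adjusted p = 1.88e-05), called in all 20 alternatives. The other 9 did not pass, among them Usp2 at 0.05, Klf15 at 0.09 and Wee1 at -0.07, and the list median was -0.05.

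Promoter sequences were looked up for the motifs through which these genes are wired together. RefSeq windows (GRCm38.p6, 250 bases before to 50 after a start) were at hand for 9 of the 10 members, 13 windows in all, and Per2 had no entry. The canonical E-box CACGTG, which reads the same on both strands, was found in windows of Per1, Cry1 and Tef, and in 7.15% of all 32851 windows. The D-box TTATGTAA, searched on both strands, was found in the window of Per3 alone among the members, and in 0.938% of all windows. The stretch of Per3 is shown because the gene had the lowest p and holds the D-box at 2 places, 205 and 158 bases before the start. The E-box stretches of Per1, Cry1 and Tef are shown because these were the members with the motif in a window. None of these 3 genes passed the test, but 7 of the 10 members did not, and motifs were not compared with calls. Capitals mark the motif, and each run is 5′ to 3′ on the strand of its gene.

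Per3 (chr4:151044796-151044890, minus strand): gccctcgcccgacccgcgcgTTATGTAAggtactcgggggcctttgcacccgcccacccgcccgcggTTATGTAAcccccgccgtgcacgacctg
Per1 (chr11:69098763-69098808, plus strand): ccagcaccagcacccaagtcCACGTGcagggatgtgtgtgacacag
Cry1 (chr10:85185089-85185134, minus strand): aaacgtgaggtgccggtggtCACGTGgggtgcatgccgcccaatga
Tef (chr15:81802526-81802571, plus strand): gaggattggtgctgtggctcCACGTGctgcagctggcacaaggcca
Tef, a further start (chr15:81811256-81811301, plus strand): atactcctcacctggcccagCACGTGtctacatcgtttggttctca

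The related motif CACGTT, searched on both strands, was found in windows of Cry1, Cry2 and Nr1d1, and in 4.68% of all windows. Clock, Nr1d2 and Dbp held none of the 3 motifs in these windows. A match is a description of the letters, and nothing was measured here on which factor binds them.

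The spread between libraries of 1 genotype was described next. For each gene the SD of log2(value + 1) around the genotype means (8 libraries, 6 degrees of freedom) was set beside the SD that Poisson counting alone would give at its depth. Per1 had the widest spread of the 10, with an SD of 0.37 against 0.10 from counting, a ratio of 3.53 that lay at the 99.4th percentile of the 12027 genes with a mean of at least 20. The ratio of Per1 rested on Mettl3 KO library 1. Without that library, an alternative chosen after seeing the data, its SD was 0.16 and its ratio 1.57 (percentile 90.3), and Tef had the highest ratio of the 10, at 3.02. With all libraries Tef followed with a ratio of 2.81 (percentile 98.8), Nr1d1 with 2.17 (96.9) and Per3 with 2.02 (95.8). Clock (1.28), Cry2 (1.33) and Per2 (1.09) were closest to counting error. The median ratio of the 10 members was 1.67, and that of all 12027 genes was 1.02, without matching genes for depth. By the SD alone the percentiles were lower, at 96.2 for Per1, 69.2 for Tef, 74.4 for Nr1d1 and 74.5 for Per3. Other lists had median ratios on both sides, 2.09 for the 7 ventricular myocyte markers, 1.64 for 3 further activator genes and 1.00 for 6 genes that act on clock proteins. A wide spread was thus not particular to the members. The large SD of Cry1 (0.34) went with a counting SD of 0.22.

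**Figure D3:**
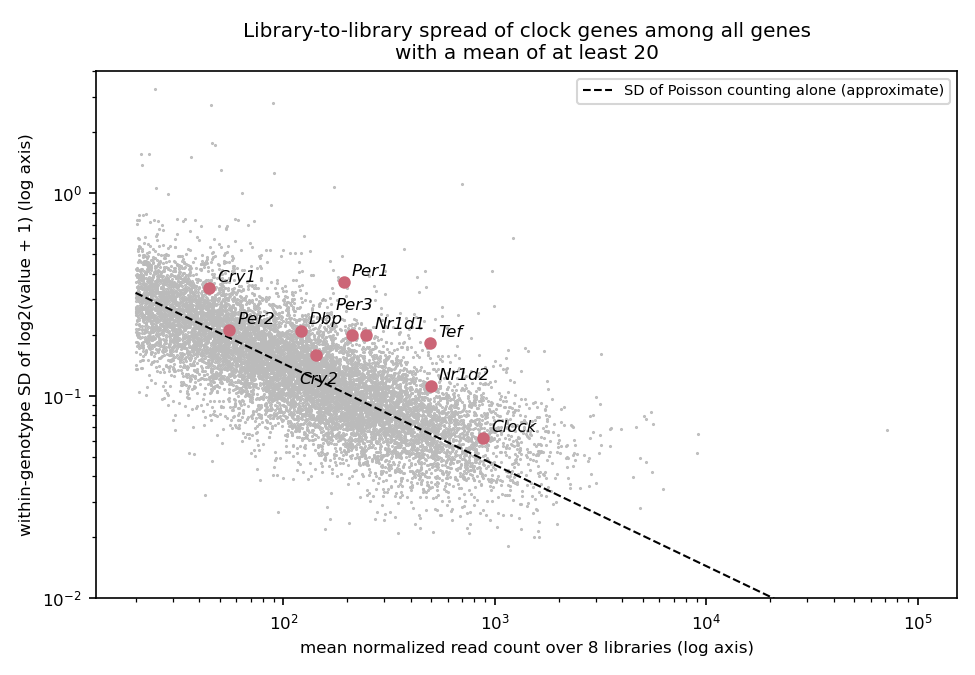
Within-genotype SD of log2(value + 1) against the mean normalized read count (both axes log), with grey points for 12027 genes and red points for the 10 clock genes. The dashed line is the SD expected from counting alone, and Per1, Tef, Nr1d1 and Per3 lie well above it.

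Deviations of the members from the genotype means were correlated over the 8 libraries. Genes share depth and normalization within a library, so the coefficients are given as a description and were not set against those of other gene pairs. Of 45 pairs of members, 8 had an r above 0.7 and 4 had an r below -0.7. Cry2, Nr1d1, Dbp and Tef moved together, with r between 0.77 and 0.89 in all 6 pairs, and between 0.67 and 0.95 with any 1 library left out, an alternative chosen after seeing the data. All 4 of them were above their genotype mean in WT libraries 1 and 3 and in Mettl3 KO libraries 1 and 4, and below it in WT libraries 2 and 4 and in Mettl3 KO library 2. Nr1d1 ran from 220 to 300 in WT and Tef from 421 to 568, ranges wider than the difference between the genotype means. Outside the members, Bhlhe40 (r = 0.92), Usp2 (r = 0.93) and Pik3r1 (r = 1.00) followed Nr1d1. Clock moved with Bmal1 (r = 0.87) and with Nfil3 (r = 0.86).

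Per1 and Per2 made up another pair (r = 0.71, and 0.48 without Mettl3 KO library 1), and Per2 also moved with Per3 (r = 0.75). Cry1 ran against Nr1d2 (r = -0.77, and -0.43 without WT library 2), Per2 (r = -0.73) and Per3 (r = -0.73), and Clock ran against Per2 (r = -0.72). The members were further set beside 8 glucocorticoid-induced genes, which stress hormones raise in many tissues. Per1 (r from 0.36 with Sgk1 to 0.90 with Fkbp5), Per2 (0.20 to 0.81) and Nr1d2 (0.33 to 0.96, highest with Cdkn1a) had a positive r with all 8, and Cry1 (-0.84 to -0.43) had a negative r with all 8. The other 6 members had coefficients of both signs. Without Mettl3 KO library 1 the coefficients of Per1 ran from -0.22 to 0.81 and those of Per2 from -0.21 to 0.68. With any 1 library left out those of Nr1d2 and Cry1 kept their signs, but some came much closer to 0. The r of Nr1d2 with Sgk1 fell from 0.52 to 0.03 without WT library 2. Cry1 with Mt1 (r = -0.43) also weakened without WT library 1, and Nr1d2 with Errfi1 (r = 0.33) without Mettl3 KO library 3. Fkbp5, a co-chaperone of the glucocorticoid receptor, had 111, 68, 83 and 110 in the WT libraries and 71, 118, 207 and 142 in the Mettl3 KO libraries. As for Per1, WT libraries 1 and 4 stood above WT libraries 2 and 3, and Mettl3 KO library 1 was lowest and library 3 highest in its group. The r of Per1 was 0.83 with Tsc22d3 and 0.81 with Zbtb16, and without Mettl3 KO library 1 it was 0.67 and 0.25, against 0.81 for Fkbp5. Zbtb16 had 286 in Mettl3 KO library 1 and 460 to 554 in the other 3.

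Of the 8 glucocorticoid-induced genes 1 passed between genotypes, Tsc22d3 at 0.26 with an SE of 0.08 (limma adjusted p = 0.0455), in 8 of 20 alternatives. The other 7 did not pass and went in both directions. Fkbp5 differed by 0.46 and Errfi1 by 0.10, whereas Sgk1 differed by -0.24, Zbtb16 by -0.17, Cdkn1a by -0.15, Mt1 by -0.21 and Mt2 by -0.76. The list median was -0.16. Their summed level was 1147 to 1527 in WT libraries, 1029 in Mettl3 KO library 1 and 1386 to 1573 in the other Mettl3 KO libraries. The atrial index also went with Per1 (r = 0.83) and Per2 (r = 0.76), and with Clock in the opposite direction (r = -0.64). Without Mettl3 KO library 1 these coefficients were 0.32, 0.58 and -0.44. The part of stress hormones, of atrial tissue and of the time of collection in the spread of these genes was not tested. None of 8 immediate early genes, which respond within minutes to stimulation or handling, passed between genotypes (limma, 2 at an unadjusted p under 0.05, 0 by limma voom). Their summed level was 448 to 511 in WT and 545 to 571 in Mettl3 KO libraries.

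**Figure D4:**
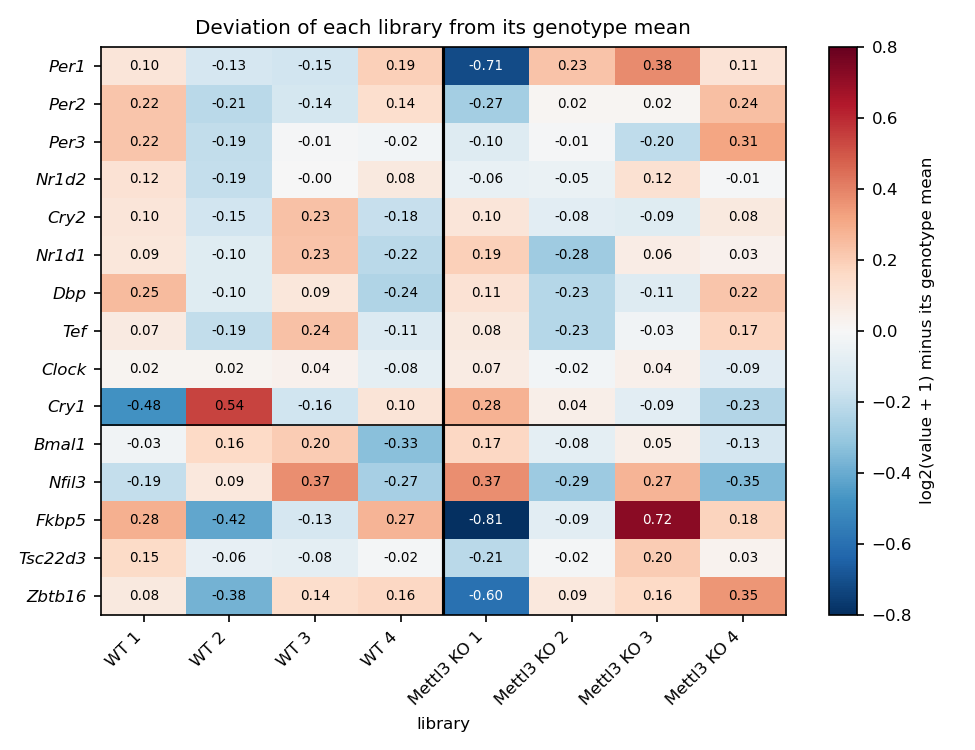
Deviation of each library (columns) from its genotype mean on the log2(value + 1) scale (colour and printed number) for the 10 clock genes and, below the line, Bmal1, Nfil3 and the glucocorticoid-induced genes Fkbp5, Tsc22d3 and Zbtb16. Per1, Fkbp5 and Zbtb16 are all far below the mean in Mettl3 KO library 1 (-0.71, -0.81 and -0.60), and Cry2, Nr1d1, Dbp and Tef share their signs in 7 of 8 libraries.

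The genes whose deviations were most like those of Dbp were read from 11938 genes outside the lists with a mean of at least 20. The highest r were those of Tlr7 (0.99), Armcx3 (0.98), Zfp423 (0.98), Matn2 (0.98) and Tmem176a (0.97), and the lowest those of Spn (-0.98), Heyl (-0.96), Mrpl58 (-0.96), Gm43504 (-0.95) and Psme3 (-0.94). With 8 libraries and this many genes, high coefficients arise readily, and Tlr7 had only 29 to 47 normalized read counts.

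**Figure D5:**
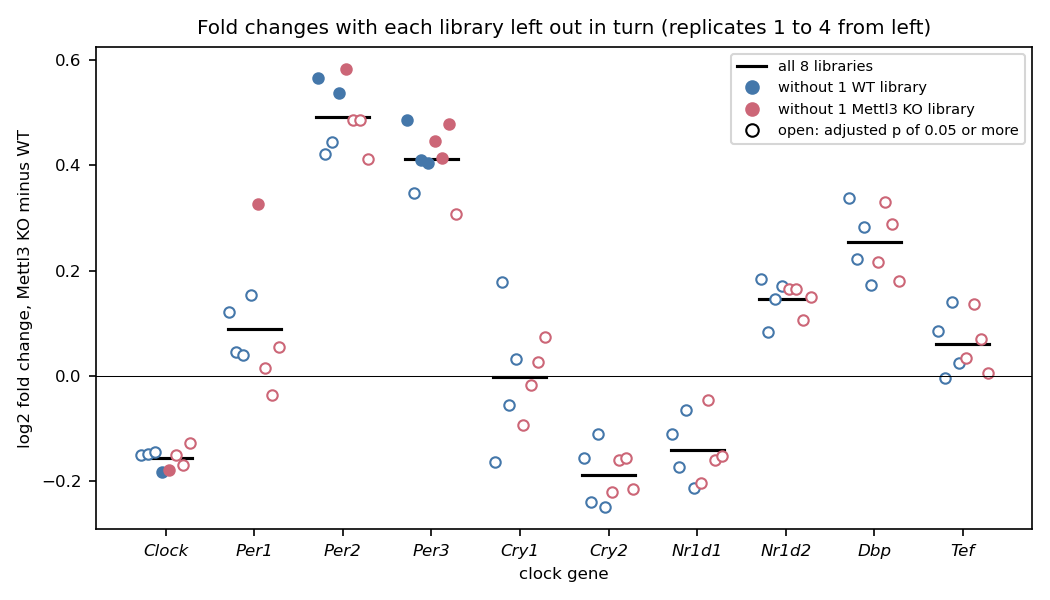
Log2 fold changes (vertical axis, Mettl3 KO minus WT) of the 10 clock genes with all libraries (black lines) and with each library left out in turn (points, replicates 1 to 4 from left, blue for WT and red for Mettl3 KO), with filled points for a limma adjusted p under 0.05. Per3 stays between 0.31 and 0.49 and is filled in 6 of 8 cases, Clock stays between -0.18 and -0.13 and is filled in 2, and Per1 passes only without Mettl3 KO replicate 1.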

How the data were processed

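Stranded libraries of heart RNA were read from 1 end. Per the labels and the study's methods, the authors used Trimmomatic 0.39, STAR 2.7.11a (mm39), Picard 3.1.1 to remove duplicates, featureCounts 2.0.4 over exons by strand and DESeq2 1.36.0 for normalization. The deposited values are a score, normalized counts rounded to whole numbers, so no negative binomial count test was run, and limma voom, made for raw counts, served only as an alternative on these values. Reads per library were estimated from doubled or skipped low values, which was tested on simulated data.

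limma 3.58.1 (R 4.3.3) compared the genotypes on log2(value + 1) over genes with a mean of at least 1. Its trend option was on and the model held no other term. Each test was two-sided. A fold change on this scale understates the change of low genes. P-values measure the spread between these libraries. No 2 libraries agreed within sampling noise (chi-square per degree of freedom of 1.12 to 1.94 within genotypes). Over all genes Mettl3 KO library 1 stood apart, with 1.76, 1.6 and 1.94 against Mettl3 KO libraries 2, 3 and 4, whose own pairs gave 1.12 to 1.18. WT library 3 gave 1.31, 1.7 and 1.78 against WT libraries 1, 2 and 4, and the other WT pairs gave 1.17 to 1.34. The members and gene lists were chosen with earlier results of these data known. Named genes were the members, the listed genes and, by correlation, those most like Dbp. Camta1 was named after its overlap with Per3 was found. Alternatives were pseudocounts, filters, scalings, limma settings, a replicate block, an atrial marker covariate and each library left out. The fit was tested on simulated data. Some genes of the loops are not reported here.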

Additional observations from a re-analysis of the deposited data

Results flagged for a closer look

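Dixon's ratio, the distance of the outermost library from its neighbour as a share of the group's range, was computed for each member in each genotype. It passed the 95% critical value in 1 of 20 groups, and chance gives 1. It was Clock in WT libraries, with a ratio of 0.838: replicate 4 had 878 normalized read counts and the others 940 to 952. Without that library the log2 fold change of Clock was -0.18 (limma adjusted p = 0.0281).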

How the results depend on the processing

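Of 20313 genes 1607 were called. Without a mean-variance trend limma called 321 genes and none of the members (3 at an unadjusted p under 0.05), and with the atrial index it called 903, 590 of them shared with the 1607, and 1 member, Per1. Leaving out 1 library gave 1019 (without Mettl3 KO replicate 3) to 1596 genes and 0 to 4 members. The replicate block gave 1346 genes and 2 members, and changed the call of Per2 and Tsc22d3. It is no paired design, since same-numbered libraries shared only a number (r of their deviations -0.04 to 0.09). Directions turned for 4 genes, none called in the main analysis, and the cause was not tested. The atrial index nearly followed genotype, so fold changes fitted with it cannot separate genotype from the atrial markers. Per1 was -0.58 with the atrial index and -0.0374 to 0.33 with a library left out. Cry1 was 0.22 with the index and -0.16 to 0.18 with a library left out, Nr1d1 was 0.11 with the index, and Tef was -0.00375 to 0.14 with a library left out. Of the members, the SD from counting alone was largest for Cry1 (0.22) and Per2 (0.19).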
